A study of Rattus norvegicus and Heterocephalus glaber with 6 samples.

Results

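DNA repair genes were followed in liver RNA of naked mole rats and rats that had been kept for 8 hours at 8% oxygen. The genes are a fixed list of 43 symbols from the main repair pathways, taken by exact symbol, ignoring case. The list used no measured value, but it was chosen with earlier results of these data known. Of these, 38 had a row in the tables used here, out of 22696 symbols in all. All 38 were listed for rat and 1, ERCC1, for naked mole rat (NMR). Ercc2, Ddb2, Msh6, Xrcc3 and Atr had no row under these symbols and were not analysed here.

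Both groups were exposed to the same low oxygen, with 3 NMR libraries and 3 rat libraries of polyadenylated RNA from liver, and samples in normal oxygen were not used here. No effect of oxygen was therefore tested, and the comparison is between the species under the same exposure. The labels used here give no strain, age or sex, nor whether each library came from its own animal, so the spread between libraries may in part be technical. Values are FPKM, fragments scaled to transcript length and to the library's mapped fragments, a scale on which levels of different genes can be set side by side. The NMR tables held 734 rows, against 22549 rows in the rat tables, and FPKM sums ran from 17543 to 21793 in NMR and from 527133 to 557187 in rat. The absolute depth is unknown.

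Cells keep several repair systems for different lesions. Nucleotide excision repair cuts out bulky lesions with a stretch of the strand around them, and base excision repair removes single damaged bases. Mismatch repair corrects replication errors, while end joining and homologous recombination mend double-strand breaks. Recombination acts mainly in dividing cells that hold a sister chromatid, and most hepatocytes of an adult liver are not dividing. In cultured human cancer cells prolonged hypoxia is known to lower transcripts of recombination genes such as BRCA1.

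In rat liver the most abundant members were Ddb1 of nucleotide excision repair, Mgmt of direct reversal and Ung of base excision repair, and the least abundant were Brca2, Xrcc2 and Brca1 of recombination. Pathway medians were 5.21 FPKM in base excision repair, 4.25 FPKM in nucleotide excision repair, 2.22 FPKM in mismatch repair, 2.21 FPKM in end joining and 2.19 FPKM in recombination. Of the 38 members, 33 (86.8%) had a mean of at least 1 FPKM, against 44.3% of all rat rows, and 7 (18.4%) had a mean of at least 10 FPKM, against 17.3% of all rat rows. The 7 were Ddb1, Mgmt, Ung, Xrcc1, Apex1, Nbn and Parp1. The median of the member means was 3.60 FPKM, against 0.448 FPKM over all rat rows and 6.74 FPKM over the 9994 rat rows at 1 FPKM or more. All 38 members were above 0 in each rat, and the 5 with a mean under 1 FPKM were Prkdc, Pms1, Brca1, Xrcc2 and Brca2. In bulk tissue, fewer cells of a type and less RNA per cell cannot be told apart.

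**Figure D1:**
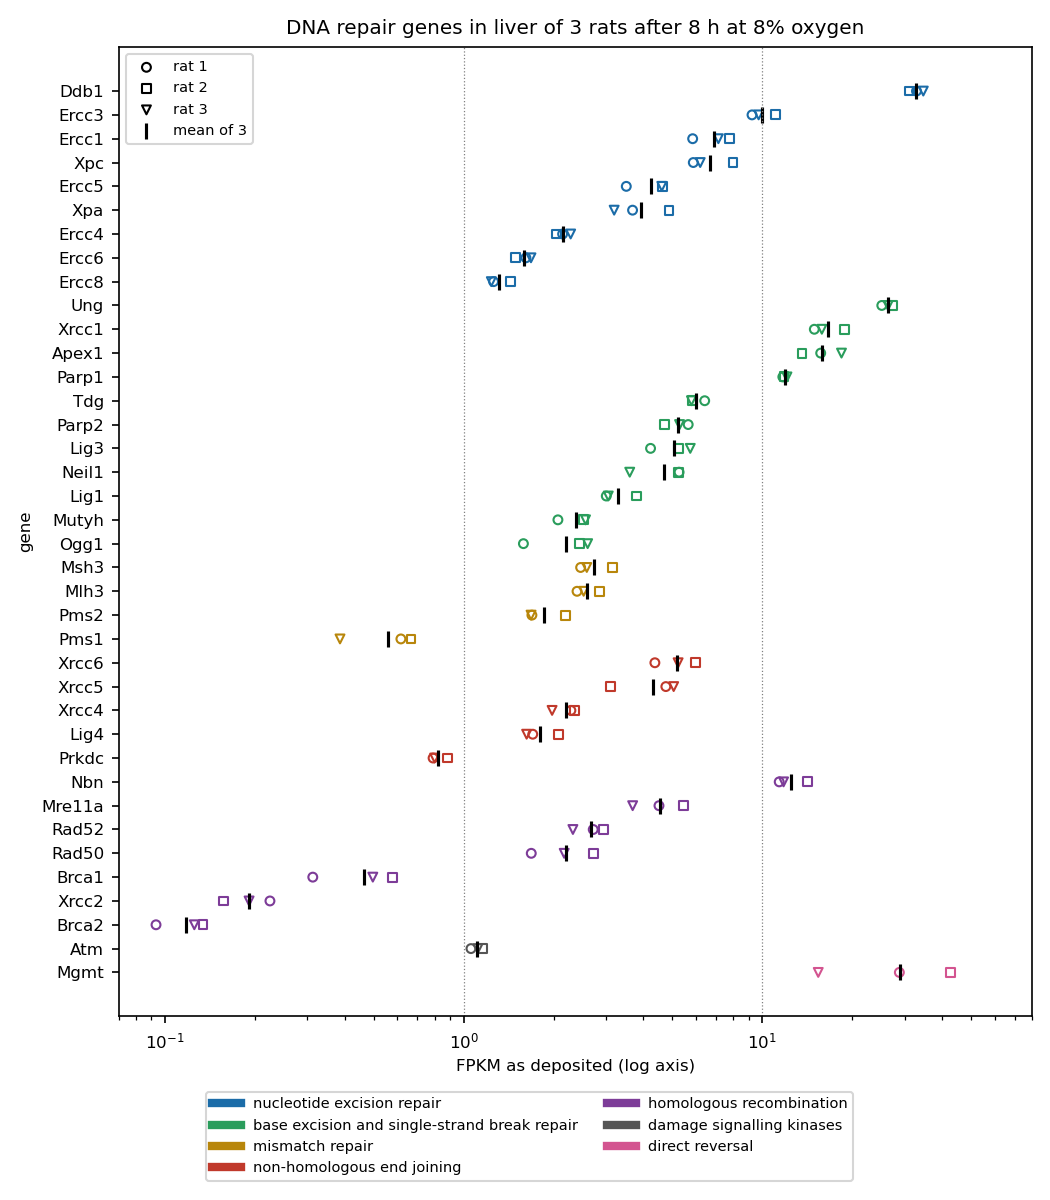
FPKM of the 38 DNA repair genes listed for rat (log axis), with a symbol for each of 3 rat libraries, a bar for their mean and colours for the pathway; dotted lines stand at 1 and 10 FPKM. Ddb1, Mgmt and Ung stand highest, Brca2, Xrcc2 and Brca1 lowest, and the symbols of Mgmt lie farthest apart among genes above 1 FPKM.

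The tissue label was checked against marker lists in the rat tables. Hepatocyte markers other than albumin summed to between 39149 and 42333 FPKM, with 10 of 10 above 10 FPKM. Macrophage markers summed to between 254 and 365 FPKM and proliferation markers to between 13.0 and 14.5 FPKM, and T or NK cell markers to between 2.75 and 3.84 FPKM. In NMR, 1 of the hepatocyte markers was listed, APOH, at 57.9, 34.7 and 51.7 FPKM, against 3446, 3597 and 3239 FPKM in rat. Its NMR row spans 2368397 bp, 168 times the rat row, so the label could hardly be checked in NMR.

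Nucleotide excision repair had 9 of 11 members in the rat tables, all 9 with a mean of at least 1 FPKM. Ddb1, the adaptor that carries damage-binding proteins to the CUL4 ubiquitin ligase and serves that ligase in other roles too, stood at 32.8, 31.1 and 34.6 FPKM, the highest mean of the list at 32.8 ± 1.76 FPKM (SD, n = 3). Ercc3, a helicase of the transcription factor TFIIH, followed with a mean just under 10 FPKM and an SD of 0.932 FPKM (n = 3). Xpc, which finds lesions across the genome, was at 5.87, 7.98 and 6.20 FPKM. Ddb1 lay above the 8 other listed members of the pathway in each rat.

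The 5 remaining members besides Ercc1 lay lower, with means under 5 FPKM. Ercc5, the nuclease that cuts on the 3′ side of a lesion, averaged 4.25 ± 0.647 FPKM and Xpa, a scaffold of the incision complex, 3.91 ± 0.863 FPKM (SD, n = 3). Ercc4, the nuclease that cuts on the 5′ side together with Ercc1, was at 2.14, 2.05 and 2.28 FPKM, and Ercc1 exceeded it 2.73-fold to 3.79-fold within a library. Ercc6 and Ercc8, which act where a lesion stalls transcription, averaged 1.60 ± 0.0977 and 1.31 ± 0.108 FPKM. The Xpa row shares 16718 bp with that of Ncbp1, at 9.81 ± 0.784 FPKM, and no source used here says whether counting used strand. The Xpa value is therefore uncertain.

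Base excision and single-strand break repair had all 11 members, each with a mean of at least 1 FPKM. Ung, which removes uracil from DNA, led at 25.1, 27.3 and 26.4 FPKM. Xrcc1, the scaffold of single-strand break repair, stood at 14.9, 18.9 and 15.8 FPKM, and Apex1, the endonuclease that opens abasic sites and is also known as a redox factor, at 15.7, 13.6 and 18.4 FPKM. Parp1, which marks breaks with poly(ADP-ribose), was at 11.7, 11.8 and 12.1 FPKM. These 4 genes lay above the 7 other listed members in each rat. On FPKM as deposited, Parp1 had the smallest spread of any member above 1 FPKM (SD of log2(FPKM + 1) of 0.0217). With the rat libraries scaled as for Mgmt below, this no longer held. The highest scaled value of Parp1 was then 1.08 times the lowest, against 1.006 times for Ung and 1.008 times for Atm.

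The listed glycosylases for oxidised bases had means under 5 FPKM, while Nthl1, another such glycosylase from the list of other repair genes, was at 11.3 ± 1.70 FPKM (SD, n = 3). Neil1 was at 5.26, 5.25 and 3.60 FPKM. Mutyh, which removes adenine paired with 8-oxoguanine, averaged 2.38 ± 0.272 FPKM (SD, n = 3), and Ogg1, which removes 8-oxoguanine itself, was at 1.59, 2.44 and 2.60 FPKM. Tdg, a glycosylase for mispaired thymine and uracil, averaged 6.01 ± 0.349 FPKM (SD, n = 3), and Ung stood above it 3.92-fold to 4.68-fold within a library. Xrcc1 stood above its partner ligase Lig3 2.76-fold to 3.60-fold. Lig3 averaged 5.07 ± 0.772 FPKM and Lig1, the ligase of replication, 3.28 ± 0.442 FPKM. Parp2, a relative of Parp1 that also senses breaks, averaged 5.21 ± 0.472 FPKM, and Parp1 exceeded it 2.07-fold to 2.51-fold.

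Mgmt, which takes alkyl groups off guanine in a single step and is used up by it, was the second most abundant member and the most variable. It stood at 28.8, 42.7 and 15.4 FPKM in rats 1, 2 and 3, a mean of 28.9 ± 13.6 FPKM (SD, n = 3) and a highest value 2.77 times the lowest. Of these 3 values, 2 lie outside the confidence bounds that the deposited tables give for them. Scaling the rat libraries by the median ratio over rat rows left the values at 30.1, 41.0 and 15.2.

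In end joining, the Ku subunits that bind broken ends stood highest and the kinase they recruit lowest. Xrcc6 (Ku70) was at 4.37, 5.96 and 5.23 FPKM and Xrcc5 (Ku80) at 4.75, 3.11 and 5.05 FPKM. These partner subunits stood near each other in rats 1 and 3, with ratios of 0.919 and 1.03, while in rat 2 Xrcc6 was 1.92 times Xrcc5. Prkdc, the catalytic subunit of DNA-dependent protein kinase that Ku recruits, was at 0.790, 0.880 and 0.800 FPKM, so that Xrcc6 exceeded it 5.53-fold to 6.77-fold. Xrcc4 and Lig4, which seal the ends together, averaged 2.21 ± 0.201 and 1.80 ± 0.244 FPKM (SD, n = 3).

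Homologous recombination had 7 of 8 members, of which 4 reached 1 FPKM. Nbn, the subunit that links the break-binding MRN complex to ATM, was at 11.4, 14.1 and 11.8 FPKM. Its partners Mre11a, the nuclease, and Rad50, the tether, averaged 4.55 ± 0.885 and 2.19 ± 0.520 FPKM (SD, n = 3), and Nbn exceeded Rad50 5.19-fold to 6.76-fold within a library. Rad52 averaged 2.66 ± 0.313 FPKM.

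The recombination mediators lay far below these. Brca1 was at 0.313, 0.579 and 0.496 FPKM, Xrcc2 at 0.225, 0.157 and 0.191 FPKM, and Brca2, like Brca1 known from inherited breast cancer in humans, at 0.0933, 0.134 and 0.125 FPKM. All values of these 3 genes lay below every value of the 4 other recombination genes. Proliferation markers were low as well: the median of 17 was 0.275 FPKM and 4 had a mean of 1 FPKM or more. Their part in the levels of Brca1 and Brca2 was not tested. Nbr1, whose row starts or ends 994 bp from that of Brca1, stood at 53.4 ± 1.59 FPKM (SD, n = 3), far above it.

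The 4 mismatch repair genes and Atm all had means under 3 FPKM. Msh3, which recognises small loops, was at 2.46, 3.15 and 2.58 FPKM, and the MutL-type genes Mlh3 and Pms2 averaged 2.59 ± 0.236 and 1.85 ± 0.290 FPKM (SD, n = 3). Pms1 was at 0.616, 0.666 and 0.385 FPKM. Atm, the kinase that signals double-strand breaks, was at 1.06, 1.16 and 1.12 FPKM.

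The wider machinery was read from a list of 77 other repair genes, 70 of them in the rat tables, of which 49 had a mean of at least 1 FPKM and 10 at least 10 FPKM. Rad23b, the partner of Xpc, stood at 65.8 ± 0.577 FPKM (SD, n = 3), and Xpc was at 0.0901 to 0.121 of it within a library. Rbx1, the RING subunit of the CUL4 ligase, was at 30.8 ± 0.226 FPKM. High among the others were Ube2b, a ubiquitin-conjugating enzyme of lesion bypass, at 28.7 ± 1.05 FPKM and the ubiquitin ligase Rnf8 at 19.4 ± 2.67 FPKM. The list median was 2.86 FPKM, against 3.60 FPKM for the 38 members.

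Most members differed little between the rats. Over the 33 members above 1 FPKM the median SD of log2(FPKM + 1) was 0.143, against 0.137 over the 9994 rat rows above 1 FPKM. The median ratio of highest to lowest value was 1.27, against 1.24 over those rows. On FPKM as deposited from all 3 rats, the members were thus no steadier than rat rows at large. Of the 33, 28 had a highest value under 1.5 times the lowest, and Mgmt alone exceeded 2 times. These counts were not taken over all rows. After Mgmt the largest SDs were those of Xrcc5 (0.304), Ogg1 (0.259) and Neil1 (0.257), and each has another order of rats: Xrcc5 was lowest in rat 2, Ogg1 in rat 1 and Neil1 in rat 3. Without rat 2 the median SD was 0.0555 over the members and 0.101 over all rows. With the rat libraries scaled it was 0.115 over the members, against 0.128 over all rows. In both of these settings the members had the smaller median, unlike with the deposited values of all 3 rats.

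Rat 2 held the highest value for 21 of the 33 members (63.6%), against 49.0% of the 9994 rat rows. After scaling of the rat libraries the counts were 17 of 33 (51.5%), against 36.4% of all rows, and rat 3 then held the lowest value for 17 (51.5%), against 34.7% of all rows. Among the 49 other repair genes above 1 FPKM, rat 2 was highest for 30 (61.2%), and for 27 (55.1%) after scaling. These are counts over genes of the same libraries and carry no test. Macrophage markers, 9 in the rat tables with Marco at 0, summed to 254, 268 and 365 FPKM in rats 1, 2 and 3. Neutrophil markers, 4 in the tables with Elane at 0, summed to 2.23, 7.80 and 10.1 FPKM. Hepatocyte markers other than albumin summed to 39232, 42333 and 39149 FPKM and proliferation markers to 13.0, 14.5 and 13.8 FPKM. Both sums were highest in rat 2, but single markers of each list differed in which rat was highest. Some were lowest in rat 2. All these sums are of FPKM as deposited, and none was taken on scaled values. Stellate cell or fibroblast markers summed to 42.9, 30.9 and 42.1 FPKM. Their sum was lowest in rat 2, while single markers of this list differed in which rat was lowest. Sinusoidal endothelial markers summed to 90.5, 86.8 and 84.2 FPKM. The part of any of these cell types in the spread was not tested.

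**Figure D2:**
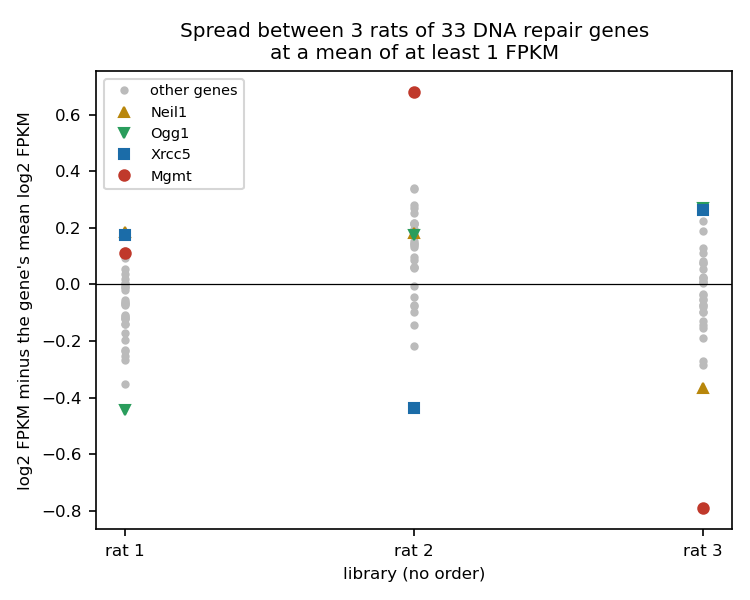
Log2 FPKM minus the gene's own mean log2 FPKM in 3 rats (replicates, with no order) for the 33 DNA repair genes at a mean of at least 1 FPKM. Mgmt stands above the other genes in rat 2 and below them in rat 3, and Xrcc5 is lowest in rat 2.

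Sequence just upstream of the annotated start is shown for the most variable member (Mgmt), the base excision genes Ung and Apex1 and the gene listed for both species (Ercc1). The sequences are from RefSeq on build GRCr8, which need not be the build of the deposited tables, and cover the 250 bases before the start, 5′ to 3′ on the gene's strand. Capitals mark each stretch of ACGTG or its reverse complement, letters found in one form of the hypoxia response element and also within the E-box CACGTG. Of 38 members 32 matched by symbol.
Mgmt (GRCr8 chr1:201140582-201140831, plus strand): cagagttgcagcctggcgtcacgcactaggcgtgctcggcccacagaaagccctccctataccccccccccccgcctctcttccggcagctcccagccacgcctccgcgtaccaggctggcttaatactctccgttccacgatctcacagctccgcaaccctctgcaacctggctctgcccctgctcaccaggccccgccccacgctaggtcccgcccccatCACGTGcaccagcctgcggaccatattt
Ung (GRCr8 chr12:48154046-48154295, minus strand): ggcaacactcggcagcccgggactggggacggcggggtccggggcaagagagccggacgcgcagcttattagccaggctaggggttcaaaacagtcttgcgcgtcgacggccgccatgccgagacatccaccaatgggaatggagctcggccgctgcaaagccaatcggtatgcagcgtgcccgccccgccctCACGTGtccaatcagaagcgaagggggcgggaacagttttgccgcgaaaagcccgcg
Apex1 (GRCr8 chr15:26617976-26618225, plus strand): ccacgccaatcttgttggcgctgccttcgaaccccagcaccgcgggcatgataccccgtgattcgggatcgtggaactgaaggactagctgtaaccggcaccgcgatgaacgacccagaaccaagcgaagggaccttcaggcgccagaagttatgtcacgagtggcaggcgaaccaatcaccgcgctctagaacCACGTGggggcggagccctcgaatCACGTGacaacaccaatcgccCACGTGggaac
Ercc1 (GRCr8 chr1:88124491-88124740, plus strand): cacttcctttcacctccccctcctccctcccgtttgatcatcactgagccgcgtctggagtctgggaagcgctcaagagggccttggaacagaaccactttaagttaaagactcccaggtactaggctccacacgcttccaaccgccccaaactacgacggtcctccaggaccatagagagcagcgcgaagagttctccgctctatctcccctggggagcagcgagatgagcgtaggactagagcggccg

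Apex1 held 3 such stretches, the most of any matched member, Mgmt and Ung 1 each and Ercc1 none, and every stretch shown reads CACGTG. The windows shown are examples and do not stand for the list. Of other abundant members, Ddb1 and Parp1 held none and Xrcc1 held 2. At least 1 stretch was found for 11 of the 32 matched members (34.4%), against 16.9% of 27457 genes with a window of the same length. GCGTG or its reverse complement, letters of another form of the hypoxia response element, is not marked above. It was counted 4 times for Mgmt and 1 time each for Ung, Apex1 and Ercc1. At least 1 was found for 20 of the 32 members (62.5%), against 27.2% of all genes. The members' windows were also richer in G and C, with a median of 59.8%, against 52.0% over all genes. They were richer still in the pair CG, which ACGTG contains, with a median of 17.5 per window, against 6.0 over all genes. The shares with a stretch were not adjusted for this. A match describes the letters alone.

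Several members lie near each other or close to another gene in rat, as the deposited tables place them. Parp2 and Apex1 are 103 kb apart on chromosome 15, and Ercc1 and Xrcc1 1.11 Mb apart on chromosome 1. Of the 38 rows, 3 overlapped another row, those of Xpa, Ercc1 and Brca2, and 28 had a separate row within 5 kb. Prkdc lies 512 bp from Mcm4, a subunit of the replicative helicase at 1.54 ± 0.124 FPKM (SD, n = 3). Ung lies 2808 bp from Alkbh2, a direct reversal enzyme at 6.88 ± 1.06 FPKM. Such neighbours stood at levels both above and below the member beside them.

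Between the species, ERCC1 was the one listed gene with a value in both. It stood at 319, 301 and 261 FPKM in the 3 NMR libraries, against 5.85, 7.76 and 7.13 FPKM in the 3 rat libraries, and the groups did not overlap. After each library was scaled by its median ratio, taken over symbols of both species, ERCC1 averaged 314 ± 35.0 in NMR and 6.40 ± 0.447 in rat (SD, n = 3 each). The log2 difference, NMR minus rat, was 5.41 ± 0.13 (SE) on log2(scaled FPKM + 1), or 42.4-fold higher in NMR (limma adjusted p = 1.27e-08 over 288 symbols).

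That call has to be read against the whole comparison. Of 288 tested symbols 212 (73.6%) were called, which took a log2 difference of 1 or more in size and an adjusted p below 0.05, with 94 (32.6%) higher in NMR and 118 (41.0%) higher in rat. The 1 tested member being called is thus no more than most symbols show. The size of its difference ranked 6 of 288 toward NMR, and the median log2 difference over all symbols was -0.40. How many symbols had groups without overlap was not counted, so a lack of overlap is no trait of ERCC1 or of any other gene named here. Species, genome, annotation and alignment cannot be told apart in this comparison.

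The rows behind the pair are very unlike in extent. In NMR the ERCC1 row runs on scaffold67 from 29455 to 2523339, a span of 2493884 bp, while in rat it runs on chromosome 1 from 78711248 to 78722474, a span of 11226 bp, so that the NMR row is 222 times as long. Exons, introns and the build are not given with the tables, and coordinates are as deposited. Of 55 tested symbols whose NMR row spans at least 100 times the rat row, a limit set after seeing the data, 23 (41.8%) were called higher in NMR and 19 (34.5%) higher in rat. In rat the Ercc1 row shares 474 bp with that of Cd3eap, at 1.67 ± 0.336 FPKM (SD, n = 3), so its value is not wholly separate either.

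A single other row, TRAPPC6A, a subunit of a vesicle tethering complex, is listed on the same NMR scaffold, and it lies wholly within the ERCC1 row and covers 93.4% of it. It stood at 5.95, 6.33 and 7.31 FPKM in NMR, against 32.2, 36.5 and 33.5 FPKM in rat. On the scaled values its log2 difference was -2.04 ± 0.11 (SE), called higher in rat (limma adjusted p = 8.26e-07). The 2 rows that share this stretch of the scaffold were thus called in opposite directions, and their values need not be separate.

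In rat, 173 rows, Ercc1 among them, start within 2.49 Mb to either side of the start of Ercc1. That distance is the length of the NMR row, so the stretch searched is longer than the row. A symbol that is also in the NMR tables was held by 2 of them, Ercc1 itself and Trappc6a. Of the 173 rows 5 had a mean above that of NMR ERCC1. The highest were Apoe, an apolipoprotein and among the most abundant liver transcripts, at 16121 ± 2502 FPKM and 292 kb from Ercc1, Apoc1 at 13705 ± 2958 FPKM and 285 kb, and Apoc2 at 2622 ± 624 FPKM and 268 kb (SD, n = 3). Rat Trappc6a lies 151 kb from Ercc1 and Xrcc1 within the same range. The median over the 173 rows was 1.03 FPKM, and 41 exceeded rat Ercc1. Whether the NMR row holds reads of such neighbours was not tested.

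**Figure D3:**
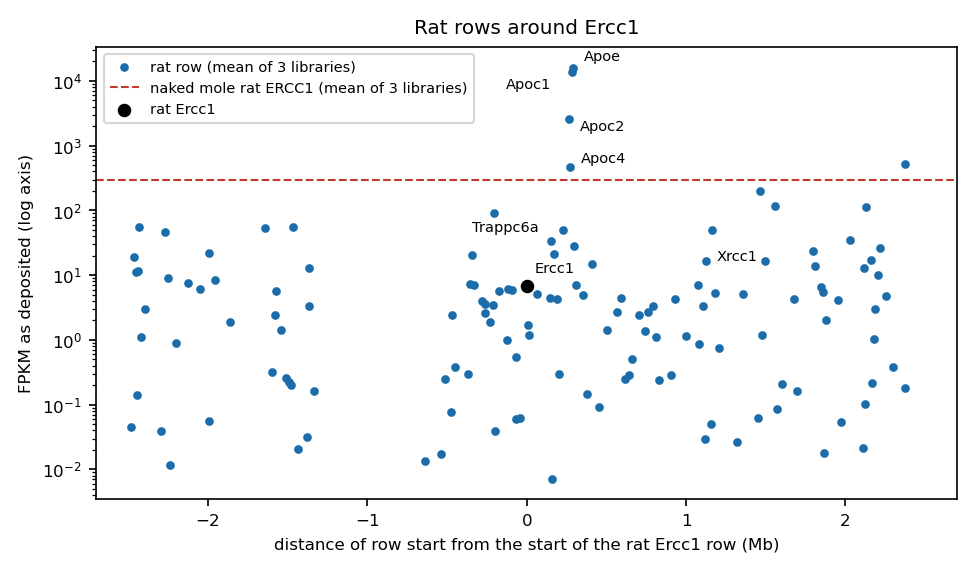
Mean FPKM (log axis, 3 rat libraries) of the 136 rat rows above 0 that start within 2.49 Mb of the start of the rat Ercc1 row, against their distance in Mb. The dashed line is the mean of NMR ERCC1, 294 FPKM, and 5 rat rows lie above it, among them Apoe, Apoc1, Apoc2 and Apoc4.

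Of the 77 other repair genes, 4 were listed for NMR as well. CETN2, a centrin that binds XPC, stood at 36.9, 15.1 and 29.9 FPKM in NMR, against 11.7, 13.0 and 11.9 FPKM in rat, with no overlap. Its rows have a similar extent, 2922 bp in NMR and 5561 bp in rat. The scaled means were 28.7 ± 10.7 in NMR and 11.3 ± 0.397 in rat (SD, n = 3 each), a log2 difference of 1.20 ± 0.27 (SE; limma adjusted p = 0.00382). Of 47 tested symbols with rows of comparable span, 27 (57.4%) were called in either direction. The CETN2 call was lost without NMR 1, with a log2 difference of 0.97 (limma adjusted p = 0.00810), and with scaling over symbols of comparable span, at 0.85 (limma adjusted p = 0.00992), since both fall under the limit of 1.

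The other 3 were not called. CDK7, the kinase of TFIIH, stood at 4.67, 4.33 and 8.75 FPKM in NMR, against 8.78, 8.52 and 8.94 FPKM in rat, with an overlap through NMR 3. Its log2 difference on scaled values was -0.38 ± 0.23 (SE; limma adjusted p = 0.145), and its sign turned with quantile normalization. The NMR row spans 2011172 bp, against 24962 bp in rat. REV3L and POLK, polymerases that copy past lesions, did not pass the filter of 1 in at least 3 libraries. REV3L was at 0.624, 0.641 and 0.592 FPKM in NMR, against 0.898, 1.03 and 0.839 FPKM in rat. POLK was at 0.402, 0.250 and 0.407 FPKM in NMR, against 0.813, 1.04 and 0.799 FPKM in rat.

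**Figure D4:**
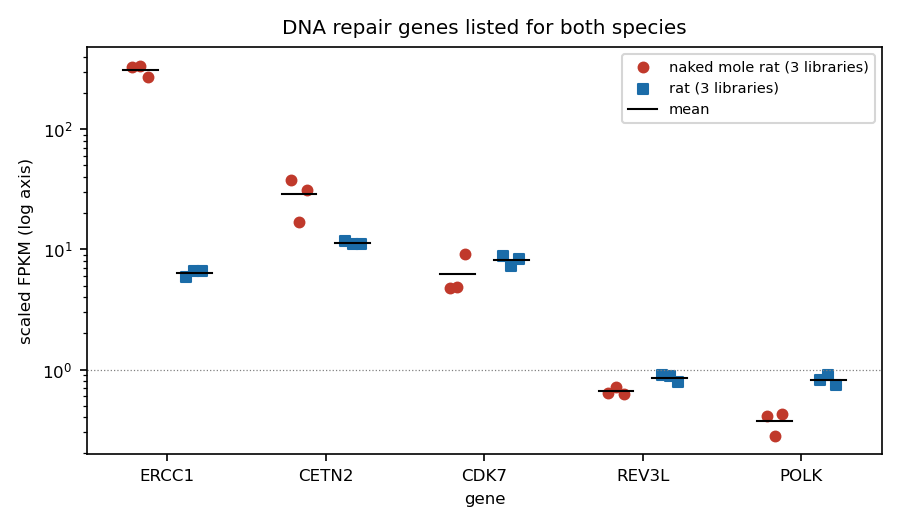
Scaled FPKM (log axis) of 5 genes, those of the DNA repair lists used here that have rows in both species. Points are libraries and bars the mean of 3 libraries, with NMR left and rat right. The dotted line is the filter at 1. ERCC1 stands apart at a mean of 314 in NMR and 6.40 in rat, CETN2 is higher in NMR without overlap, CDK7 overlaps, and REV3L and POLK lie under 1.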

How the data were processed

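The authors' deposited tables give FPKM per gene with confidence bounds and a status, per the file headers, 1 table per library. Tools in the submitters' processing notes are TopHat2 2.0.9 and Bowtie2 2.1.0, Picard 1.137 and Cufflinks 2.1.1. Build, annotation and strand setting: not given in the sources used here. FPKM keeps no read counts, so no counting interval was computed. Values with the status HIDATA were treated as missing; no member carried one.

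Rat levels are FPKM as deposited, with mean and SD over 3 libraries. Between species, rows with the same symbol were summed, libraries were divided by their median ratio to the geometric mean over 243 shared symbols above 0 in all libraries (0.889 to 0.973 in naked mole rat, 0.994 to 1.17 in rat), and symbols at 1 or more in at least 3 libraries (the smaller group's size where a library was left out) were tested on log2(scaled FPKM + 1) with limma 3.58.1 (R 4.3.3), a trend on intensity and p-values adjusted by Benjamini-Hochberg. Fold differences on this scale understate those of low genes. The step was tested on 20 simulated sets. Alternatives were the scaling, pseudocount, filter, trend, rows per symbol, a replicate block and leaving out each library.

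Members and lists were chosen with earlier results of these data known. Values per library are given for members in both species, for the 5 highest and 5 lowest in rat, for the 4 of largest spread and for the highest of each pathway; genes outside this rule are examples chosen after their values were seen. Other lists name some of their 3 highest genes or those listed for both species; a few genes of these lists, and 1 list, are not reported here.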

Additional observations from a re-analysis of the deposited data

How the results depend on the processing

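ERCC1 kept its direction and call under all 14 alternatives, with log2 differences of 5.07 to 6.60 (limma adjusted p from 1.13e-08 to 1.03e-05). Over all symbols, calls toward naked mole rat numbered 85 to 111 and calls toward rat 101 to 139. The median log2 difference moved from -0.40 to -0.62 with FPKM as deposited, -0.75 with scaling over comparable spans, -0.49 with a pseudocount of 0.1, -0.03 with no filter and 0.16 with quantile normalization; with the last, CDK7 reversed to 0.21 (limma adjusted p = 0.465, and 0.00295 to 0.465 over its 14 alternatives), and it was called under none of them. Without the filter, POLK had a log2 difference of -0.41 and REV3L of -0.16 (limma adjusted p = 0.000883 and 0.0419), under the limit of 1. Leaving out each library gave 94 to 104 and 117 to 124 calls.

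Labels number replicates 1 to 3 in both species without saying that a number pairs them, and deviations of same-numbered libraries correlated at -0.0864 to -0.0355. With the replicate block 94 and 118 symbols were called, as without it, and ERCC1 had a limma adjusted p of 6.06e-07.

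In rat, 33 members reached 1 FPKM under each alternative, and 7 or 8 reached 10. The median of member means was 3.23 without rat 2 and up to 3.72 without another rat. The median SD between rats was 0.0555 without rat 2 and up to 0.161 without rat 3; it was 0.115 with scaling, against 0.128 over all rows, and 0.180 with a pseudocount of 0.1, against 0.161 over all rows. The causes were not tested.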
